A study of Mus musculus with 2 samples.

Results

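A set of 10 genes, expressed in fetal liver or acting in their silencing after birth, was followed in the liver of a mouse made to express Snail in hepatocytes. They are H19, Igf2, Afp, Gpc3, Lpl, Igf2bp1, Igf2bp2 and Igf2bp3, together with the repressors Zhx2 and Zbtb20. Every non-control probe whose gene name in the scanner files was one of the 10 was taken, which gave 13 probes of 39429 on the array and 10 gene names of 31894. The genes were chosen by the measured difference in signal between these same arrays, so their values are a description and are supported by no test.

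The transgenic liver was Alb-Cre;CAG-floxed neo-Snail and was set against wild-type, both of strain C57BL/6, with 1 array of total RNA from each. Alb-Cre places the recombinase under the albumin promoter, so that it acts mainly in hepatocytes, and CAG is a strong, ubiquitous promoter placed here before a floxed neo cassette and Snail. The study, by its title, concerns steatohepatitis and tumours of the liver under forced Snail. Sex, age, diet, the number of animals behind each RNA and the presence of tumour in the sample are not given in the labels. Neither genotype has a replicate, so no p-value is given and no difference can be set against the spread between animals. The single Snai1 probe had a signal of 22.3 ± 3.53 in the transgenic liver and 23.2 ± 3.66 in wild-type, and since the sources used here do not say which part of Snai1 the transgene carries, it does not check the label. The transgenic array is therefore called the library labelled Snail.

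H19 is an imprinted long non-coding RNA transcribed from the maternal chromosome, next to the paternally expressed growth factor gene Igf2. In mouse liver both genes, together with Afp, are abundant in the fetus and are shut down in the weeks after birth. Zhx2, a zinc-finger and homeobox protein, is needed in the mouse for that shutdown of Afp and H19 and also restrains Gpc3 and Lpl, while Zbtb20 is a zinc-finger repressor of Afp. The Igf2bp proteins bind Igf2 and H19 RNA among other transcripts and are largely fetal or tumour-associated.

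A value below is the background-subtracted signal of a spot, not scaled between arrays, and the number after ± is the scanner software's own error estimate for that spot. Differences are log2 of the signal divided by each array's 75th percentile, which was 302.1 in the library labelled Snail and 232.7 in wild-type, taken as Snail minus wild-type. A probe counts as seen where the software called it well above background, and the lowest signal so called was 12.9 in the library labelled Snail and 13.8 in wild-type. Where a probe was seen on 1 array only, the fold is a nominal lower bound that sets the dim array at that lowest signal. It leaves out the error of the spots, so bounds near 1-fold give no direction. Of 43020 non-control spots per array, 54.0% were seen in the library labelled Snail and 50.7% in wild-type, and both arrays lay on 1 slide. The normexp correction, an alternative, re-estimates the background from the raw spot and adds an offset, which shrinks the folds of dim probes, and its values stand beside the probes it changes.

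H19 was seen in the library labelled Snail by 1 of its 2 probes, and in wild-type by neither. They are shown because one was lit and the other dark on the same array. Both match the minus strand, probe 1 at chr7:149761492-149761551 and probe 2 at chr7:149762417-149762476 on mm9, with probe 2 lying 925 bases nearer the 5′ end of the transcript.
H19 probe 1: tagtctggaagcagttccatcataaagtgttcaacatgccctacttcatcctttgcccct
H19 probe 2: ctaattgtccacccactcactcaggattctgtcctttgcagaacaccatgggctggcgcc

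The H19 transcript is also the precursor of miR-675, and Igf2 holds miR-483 in an intron. In the RefSeq annotation of GRCm38.p6 the Mir675 hairpin, chr7:142577064-142577147, lies inside H19, chr7:142575530-142578146, and the Mir483 hairpin, chr7:142654924-142654996, lies inside Igf2, chr7:142650768-142666816, all on the minus strand. Their mature forms are shown with the seed, bases 2 to 8, in capitals. The 4 seeds differ from each other, and the array does not measure mature miRNAs.
mmu-miR-675-5p: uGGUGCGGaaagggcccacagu
mmu-miR-675-3p: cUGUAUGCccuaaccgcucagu
mmu-miR-483-5p: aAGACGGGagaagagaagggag
mmu-miR-483-3p: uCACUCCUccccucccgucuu

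Probe 1 of H19 gave a signal of 37803 ± 3780 in the library labelled Snail and 7.74 ± 3.20 in wild-type, where it was not well above background. H19 was thus at least 2108-fold higher by this probe, a log2 bound of 11.04, and 437.9-fold under normexp, whose values are shrunken estimates and no bounds. Probe 2 read 3.09 ± 3.10 in the library labelled Snail and 3.17 ± 3.16 in wild-type, a signal no larger than its own error on both arrays. The files tie probe 1 to a RefSeq, an Ensembl and 2 cDNA records of H19 and tie probe 2 to the RefSeq record alone. Why probe 2 stayed dark was not tested, so the H19 result rests on 1 spot per array. Bounds were ranked among genes seen on the Snail array alone, with RIKEN, Gm, LOC and accession names passed over. In that ranking no other gene had a larger bound. The next were Cox8b, a subunit of cytochrome c oxidase, at least 1917-fold higher, and the fatty acid hydroxylase genes Cyp4a12b and Cyp4a12a, at least 671.0-fold and at least 448.9-fold. In bulk liver, more cells with a transcript and more of it per cell cannot be told apart, here and in every comparison that follows.

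Igf2, the fetal insulin-like growth factor, was likewise seen in the library labelled Snail alone. The probe at chr7:149839661-149839720 on the minus strand (mm9), 78169 bases from the lit H19 probe, read 53.2 ± 5.96 in the library labelled Snail and 2.84 ± 2.84 in wild-type. Igf2 was at least 2.97-fold higher, and 1.35-fold as estimated under normexp. A probe for the Igf2 antisense transcript, outside the 10 genes, read 24.5 ± 3.60 in the library labelled Snail and 8.45 ± 2.90 in wild-type. Its bound was 1.37-fold higher, a log2 of 0.45 beside a spot error of 0.54, so no direction is given.

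Genes on either side of H19 and Igf2 stayed within 2-fold where they could be measured. Of the other 15 genes listed along the same stretch of mouse chromosome 7, 11 were seen on both arrays, and none of these 11 reached 2-fold in either direction (0 higher, 0 lower), with a median log2 difference of -0.16. Across all genes seen on both arrays the median was -0.03, with 3.96% higher by 2-fold or more and 6.34% lower. Mrpl23, a mitochondrial ribosome gene and the next gene on the H19 side, had a signal of 7076 in the library labelled Snail and 6131 in wild-type, a log2 difference of -0.17. Ins2, an insulin gene and the next on the Igf2 side, read 30.7 in the library labelled Snail and 29.8 in wild-type, a log2 difference of -0.34. The imprinted cell-cycle inhibitor gene Cdkn1c differed by 0.03 and the potassium channel gene Kcnq1 by -0.49. The sign of Mrpl23 and of Cdkn1c turned with the scaling. The leukocyte gene Lsp1 came nearest to 2-fold, at 0.96. Ascl2, Trpm5 and Tnnt3 were seen on neither array, and Syt8 read 15.4 in the library labelled Snail and 2.73 in wild-type, too close to background for a fold. The sign of the list's small median turned with the scaling, to 0.04 under quantile scaling and 0.03 in the table of values the authors deposited, and Lsp1 passed 2-fold under 1 other scaling, with the percentile taken over probes seen on both arrays.

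**Figure D1:**
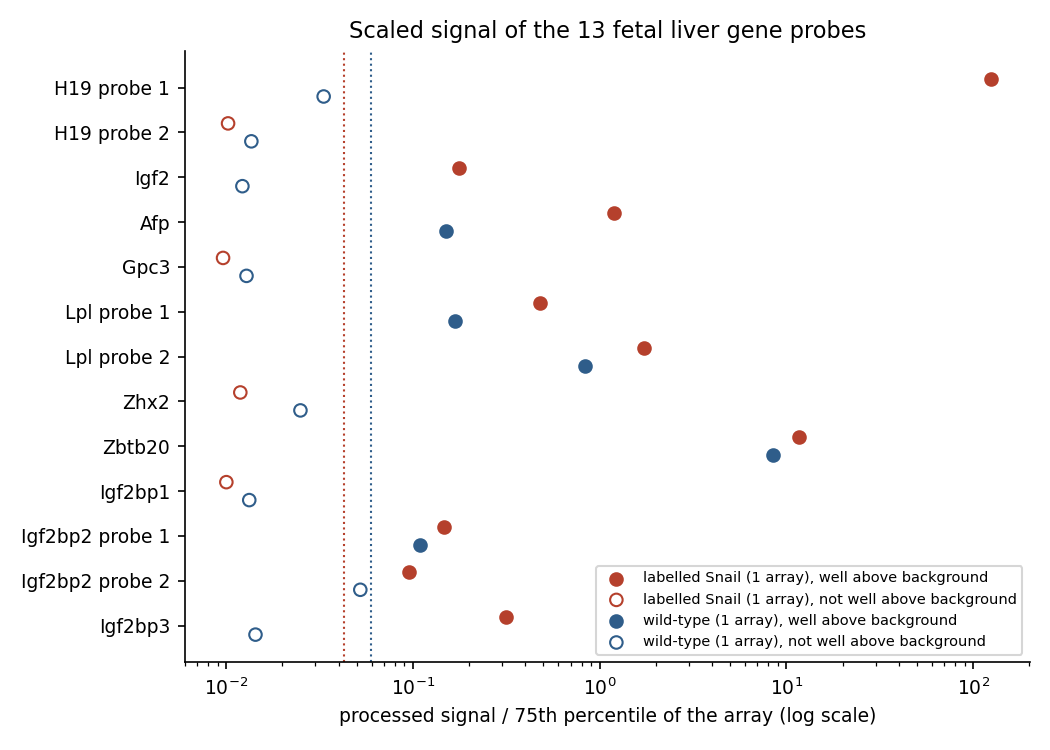
Signal of each of the 13 probes divided by its array's 75th percentile, on a log axis, in the library labelled Snail (red, upper point of a row) and wild-type (blue, lower point). Filled points were well above background and open points were not, the dotted lines mark the lowest signal so called on each array, and points are to be compared within a row only. H19 probe 1 stood at 125 in the library labelled Snail and 0.0333 in wild-type, whereas H19 probe 2 was open on both.

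Afp encodes alpha-fetoprotein, the fetal relative of serum albumin. Its probe at chr5:90937781-90937840 on the plus strand (mm9) was printed at 10 spots on each array, which gives a technical error that the other 12 probes, printed once, lack. The 10 spots read 340.0 at the lowest, 357.5 at the median and 388.0 at the highest in the library labelled Snail, and 28.8, 35.0 and 42.3 in wild-type. These unscaled spots did not overlap between the arrays, whose 75th percentiles also differed, at 302.1 in the library labelled Snail and 232.7 in wild-type. The lack of overlap describes the spots of 1 array each and not the genotypes, and nothing is read from it. How many other replicated probes also lack overlap was not computed. Mean signals were 359.1 ± 13.9 in the library labelled Snail and 35.3 ± 4.93 in wild-type (SD over 10 spots of 1 array each, not over animals). After scaling, Afp was 7.90-fold higher, a log2 difference of 2.98 ± 0.22 (SD over 10 spots), and single spots gave 6.33- to 9.65-fold. Under normexp the fold was 3.46. Of 19046 probes seen on both arrays, 48 (0.252%) were at least as much higher. With the same names passed over as for H19, the genes nearest to Afp in size of difference were Ifi27l2b at 8.09-fold, Mdfi at 7.66-fold and G0s2, an inhibitor of the lipase ATGL, at 7.61-fold.

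**Figure D2:**
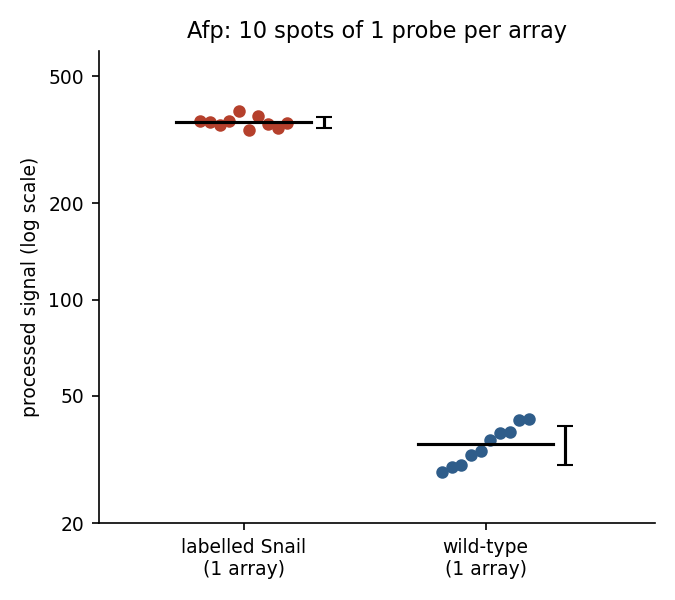
Processed signal of the 10 Afp spots on a log axis, with the library labelled Snail at left and wild-type at right. Spots run in order of their wild-type signal, the horizontal line is the mean and the bar is the SD over spots: 359.1 ± 13.9 in the library labelled Snail and 35.3 ± 4.93 in wild-type.

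The other genes of the albumin family lie near Afp on the chromosome and are expressed by adult hepatocytes. Alb, serum albumin, had a log2 difference of -0.63, Afm, the vitamin E binding protein afamin, -0.84, and Gc, the vitamin D binding protein, -0.28. Their signals were 190813, 16468 and 60327 in the library labelled Snail and 226792, 22692 and 58168 in wild-type. Afp alone of these 4 genes was at least 2-fold higher. Afm was negative under every scaling and in the authors' table, between -0.90 and -0.53. Alb and Gc were negative except under quantile scaling, at 0.045 and 0.15, and in the authors' table, at 0.045 and 0.10, so no direction is given for either.

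The 250 bases before the Afp start are shown because Afp differed most among those of the 10 genes that were seen on both arrays and is a textbook target of liver factors through this stretch. They run chr5:90490464-90490713 on the plus strand, from RefSeq on GRCm38.p6. Capitals mark a half-site of HNF1, GTTAAT, at positions -105 to -100 from the start, and a match to the C/EBP pattern TTGCNNAA at -89 to -82.
Afp upstream: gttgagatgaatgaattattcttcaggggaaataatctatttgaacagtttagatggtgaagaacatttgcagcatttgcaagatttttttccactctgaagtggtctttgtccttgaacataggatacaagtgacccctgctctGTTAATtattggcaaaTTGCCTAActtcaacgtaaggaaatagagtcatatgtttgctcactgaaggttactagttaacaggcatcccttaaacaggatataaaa

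Those letters occur in 6.43% and 9.56% of 32851 promoter windows. The search covered both strands of the 250 bases before each start, and bases after the start were not searched. The Snail E-box CAGGTG and the FOXA pattern TGTTTAC were searched likewise and occur in 17.2% and 3.17% of all windows. Windows were found for 6 of the 10 genes, 9 windows in all, and the Afp window was the only one to hold any of the 4 patterns. A match describes the sequence and says nothing of binding. H19, Lpl, Zhx2 and Igf2bp1 had no window.

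Among 17 transcription factors that act on the Afp promoter or enhancers in the literature, 16 were seen on both arrays. None of the 16 was higher by 2-fold or more (0) and 1 was lower by that much, with a median log2 difference of -0.34. The lower one was Foxa3, a forkhead factor of liver, at 104 in the library labelled Snail and 281 in wild-type, 3.52-fold lower. Its log2 difference lay between -1.88 and -1.38 across scalings and background corrections. Sall4, a fetal liver zinc-finger factor, differed by -0.90, Cebpa, a factor of mature hepatocytes, by -0.78, and Zfhx3, which represses Afp, by -0.72.

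Zhx2 was seen on neither array. Its probe at chr15:57670417-57670476 on the plus strand (mm9) read 3.60 ± 2.93 in the library labelled Snail and 5.81 ± 3.05 in wild-type, so no fold is given and a difference was not detectable at this signal. Its relatives Zhx1 and Zhx3 were seen on both arrays and differed by -0.14 and -0.08.

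Zbtb20 was strong on both arrays and slightly higher in the library labelled Snail. Its probe at chr16:43619030-43619089 on the plus strand (mm9) read 3545 ± 354.5 in the library labelled Snail and 1971 ± 197.1 in wild-type. After scaling it was 1.39-fold higher, a log2 difference of 0.47 ± 0.20, and 14.0% of probes seen on both arrays were at least as much higher. A probe of an uncharacterised transcript next to it read 633.3 in the library labelled Snail and 372.4 in wild-type, 1.31-fold higher.

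Other genes that have been linked to Zhx2 in mouse liver differed in both directions. The evidence for that link varies between them and is least certain for the metallothioneins Mt1 and Mt2. Of 9 such genes on the array outside the 10, 6 were seen on both arrays, 1 of them higher by 2-fold or more and 5 lower, with a median log2 difference of -2.07, and 3 more were seen in the library labelled Snail alone. Scd2, a fatty acid desaturase, read 11890 in the library labelled Snail and 121 in wild-type, a log2 difference of 6.25. Elovl3, a fatty acid elongase, read 149 in the library labelled Snail and 7.18 in wild-type, at least 8.32-fold higher. The other pair seen in the library labelled Snail alone were the fatty acid hydroxylase genes Cyp4a12b, at 12034 in the library labelled Snail and 6.60 in wild-type, and Cyp4a12a, at 8051 in the library labelled Snail and 4.08 in wild-type, with the bounds given above. The lower genes were Mt2 at -7.32, Mt1 at -5.63, the major urinary protein genes Mup3 at -2.67 and Mup20 at -1.46, and the cytochrome P450 gene Cyp2a4 at -1.32. The Mup20 probes disagreed by 2.41 on the log2 scale, and Mup genes are near-identical copies. Several of these genes, the Mup and Cyp4a12 genes among them, are known for sex-dependent levels in mouse liver, and sex is not given in the labels, so its part in these differences was not tested.

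Lpl, lipoprotein lipase, hydrolyses circulating triglyceride and is high in fetal and low in adult mouse liver. It was seen on both arrays by 2 probes 5217 bases apart. Probe 1, at chr8:71425050-71425109 on the plus strand (mm9), read 144.1 ± 15.0 in the library labelled Snail and 39.0 ± 5.52 in wild-type, 2.84-fold higher, a log2 difference of 1.51 ± 0.25. Probe 2, at chr8:71430267-71430326, read 521.5 ± 52.2 in the library labelled Snail and 194.3 ± 19.6 in wild-type, 2.07-fold higher, or 1.05 ± 0.21. The probes agreed in direction and lay 0.46 apart on the log2 scale. Under normexp neither reached 2-fold, probe 1 being 1.53-fold and probe 2 1.89-fold higher, and median scaling alone also put probe 2 under 2-fold, at a log2 difference of 0.98. Among all probes seen on both arrays, 1.45% and 3.35% were at least as much higher as probe 1 and probe 2.

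Lpl acts on lipoproteins with a set of cofactors, inhibitors and receptors. Of 12 such genes and further lipases seen on both arrays, 1 was higher by 2-fold or more and 0 were lower, with a median log2 difference of 0.19. The higher one was Apoc2, the obligate cofactor of Lpl, which read 104405 in the library labelled Snail and 31091 in wild-type, 2.59-fold higher. The Lpl inhibitors Angptl8 and Angptl4 differed by 0.78 and 0.72, and the lipoprotein receptor gene Vldlr by -0.89. Lipg, endothelial lipase, was seen in the library labelled Snail alone, with a nominal bound of 1.22-fold, so no direction is given for it.

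Gpc3, a cell-surface heparan sulphate proteoglycan of fetal liver and a marker of hepatocellular carcinoma, was seen on neither array. Its probe at chrX:49625740-49625799 on the minus strand (mm9) read 2.91 in the library labelled Snail and 2.99 in wild-type. A further probe that the files describe as a Gpc3 transcript, outside the naming rule, read 2.75 in the library labelled Snail and 2.87 in wild-type. Both Gpc3 probes were therefore at background in both livers. Of the other glypicans, Gpc1 read 1233 in the library labelled Snail and 282 in wild-type, 3.37-fold higher, Gpc4 was 1.87-fold lower, and Gpc2, Gpc5 and Gpc6 were seen on neither array.

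**Figure D3:**
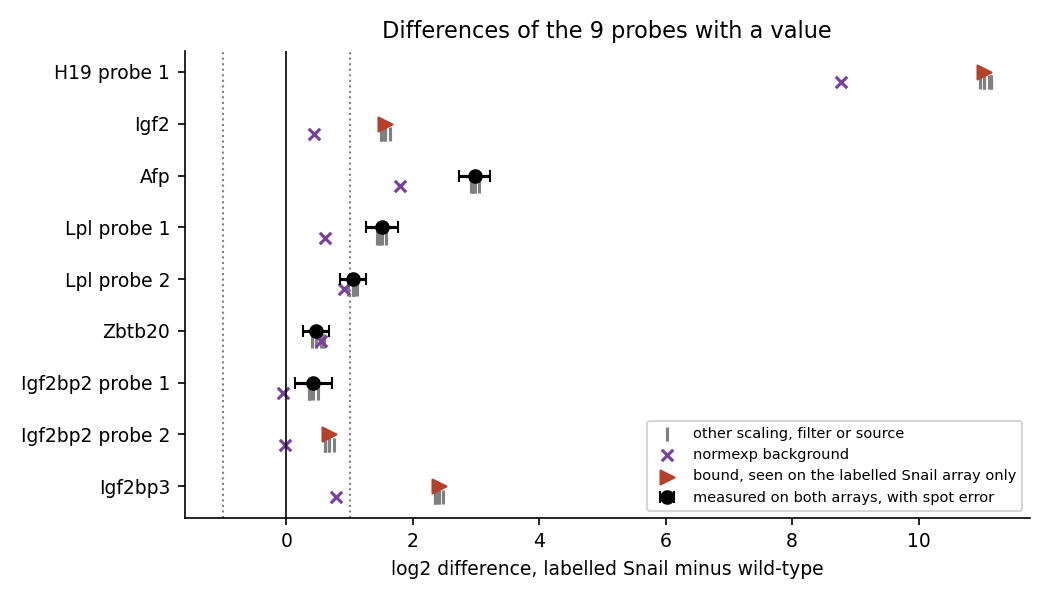
Log2 difference, Snail minus wild-type, of the 9 probes with a value. Black points are probes seen on both arrays with the software's spot error, red triangles are lower bounds, grey ticks are the other scalings, filters and the authors' table, purple crosses are the normexp background correction, and dotted lines mark 2-fold. Normexp brought Afp to 1.79 and Lpl probe 1 to 0.62 and left H19 probe 1 at 8.77.

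The 3 genes for Igf2 mRNA-binding proteins differed from one another. Igf2bp3, at chr6:49035710-49035769 on the minus strand (mm9), read 95.4 ± 10.1 in the library labelled Snail and 3.34 ± 3.33 in wild-type, at least 5.32-fold higher, and 1.72-fold as estimated under normexp. Igf2bp1, at chr11:95824526-95824585 on the minus strand, was at background on both, with 3.03 in the library labelled Snail and 3.09 in wild-type.

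Igf2bp2, the paralogue that adult tissues retain best, was weak on both arrays. Its probe 1, at chr16:22059260-22059319 on the minus strand (mm9), read 44.2 ± 5.39 in the library labelled Snail and 25.3 ± 4.10 in wild-type, 1.34-fold higher, a log2 difference of 0.43 ± 0.29. Probe 2, 322 bases away at chr16:22059582-22059641, read 28.6 ± 4.42 in the library labelled Snail and 12.2 ± 3.61 in wild-type, at least 1.60-fold higher. Both probes turned to slightly below 0 under normexp, at -0.054 and -0.021, so no direction is given for Igf2bp2.

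Igf2bp3 belongs with Lin28 and Hmga proteins to a set of fetal growth regulators that let-7 miRNAs repress. Of 9 other genes of that axis, 7 were seen on both arrays, 0 of them higher and 0 lower by 2-fold or more, with a median log2 difference of 0.26. The proto-oncogene Myc differed by 0.61 and the cyclin gene Ccnd1 by 0.46. Lin28b was seen on neither array. Hmga2 was seen in the library labelled Snail alone, with a nominal bound of 1.04-fold, so no direction is given for it.

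Igf2 acts through cell-surface receptors and is held in serum by binding proteins. Of 10 such genes seen on both arrays, 1 was higher by 2-fold or more and 3 were lower, with a median log2 difference of -0.40. Igf1r, the signalling receptor for Igf2, read 949 in the library labelled Snail and 39.9 in wild-type, 18.3-fold higher, with no value under a filter that asks for a signal of 50 on both arrays. Its log2 difference lay between 3.01 and 4.27 across scalings and background corrections. The lower ones were binding proteins, Igfbp2 at 699 in the library labelled Snail and 4940 in wild-type, 8.98-fold, Igfbp5 at 54.1 in the library labelled Snail and 220 in wild-type, 5.27-fold, and Igfbp1 at 436 in the library labelled Snail and 1612 in wild-type, 4.80-fold. The log2 difference of Igfbp5 lay between -2.46 and -1.60 across scalings and background corrections. Igf2r, which clears Igf2 from the surface and was added here after its value was seen, differed by 0.83.

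Other genes of fetal liver and liver progenitors were partly dark on these arrays. Of 18 on the array, 10 were seen on both arrays, 3 of them higher by 2-fold or more and 1 lower, with a median log2 difference of 0.57. The higher ones were Spink1, a trypsin inhibitor, at 3.67-fold, Hk2, a hexokinase that adult hepatocytes lack, at 3.63-fold, and Sox9, a duct and progenitor factor, at 2.92-fold. Under normexp 0 were at least 2-fold higher. A filter at a signal of 50 on both arrays removes all 3, whose wild-type signals were 15.6, 20.4 and 30.2 in the order named. Prom1, which encodes CD133, was 3.42-fold lower. The other 8 were seen on neither array, among them the fetal hepatoblast gene Dlk1, Epcam and the imprinted gene Peg3.

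Counted by probe, 5 of the 13 were seen on both arrays, 4 in the library labelled Snail alone, 0 in wild-type alone and 4 on neither. Of the 5 seen on both, 3 were higher by 2-fold or more, the Afp probe and both Lpl probes, and 0 were lower, where 3.75% (higher) and 6.16% (lower) of all 19046 such probes were. Over the whole array 4.74% of probes were seen in the library labelled Snail alone, 1.44% in wild-type alone and 45.5% on neither. Of the 4 seen in the library labelled Snail alone, 3 had a bound of at least 2-fold, against 15.9% of all such probes. Since the genes were picked for these differences, the shares are given as background and nothing is read from the excess. Among probes seen on both arrays, Lpl probe 2 at 2.07-fold just passed the 2-fold line and Zbtb20 at 1.39-fold was the nearest short of it. By gene, 7 of the 10 were seen in the library labelled Snail and 4 in wild-type, and Gpc3, Zhx2 and Igf2bp1 in neither. The 3 genes seen in the library labelled Snail alone were H19, Igf2 and Igf2bp3, where 4.37% of all gene names were.

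**Figure D4:**
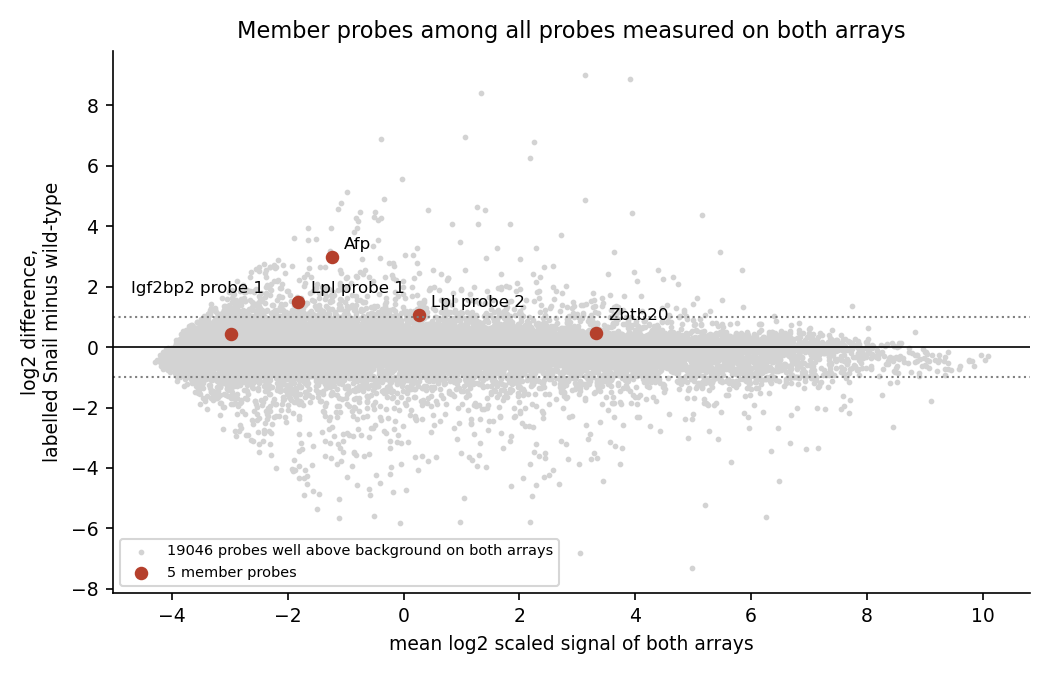
Log2 difference, Snail minus wild-type, against mean log2 scaled signal for the 19046 probes seen on both arrays (grey) and the 5 of them from the 10 genes (red); dotted lines mark 2-fold. Afp at 2.98 lies above most of the cloud, Lpl probe 1 at 1.51 and Lpl probe 2 at 1.05 lie above the upper 2-fold line, and Zbtb20 and Igf2bp2 probe 1 lie between the lines.

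Cell type markers were measured on the same arrays. Where several probes of a marker were seen on both arrays, the summed signals take the probe that differed most. The sums therefore lean toward larger differences and are given as description only. All 12 hepatocyte markers were seen on both arrays, 0 of them higher and 4 lower by 2-fold or more, with a median log2 difference of -0.67, and their summed scaled signal was 2031 in the library labelled Snail and 3193 in wild-type. The lower ones were Apoa1 at -3.04, Tdo2 at -1.38, Tat at -1.33 and Cyp2e1 at -1.27. Under the alternatives the median ran from -0.74 to -0.39 and the count of lower markers from 3 to 5. Alb was the largest part of the sum, at 632 in the library labelled Snail and 975 in wild-type. Its sign turned with the scaling, as did those of Ass1, Apob, G6pc and Pck1, so no direction is given for the sum. Skeletal muscle expresses H19 and Igf2. Of 11 muscle markers 2 were seen, on both arrays, Atp2a1 with a log2 difference of 0.43 and Tnni2 with 0.42, and the other 9, among them Ckm, Acta1 and Myh4, were seen on neither. The summed scaled signal of the muscle list was 0.386 in the library labelled Snail and 0.334 in wild-type, and its part in the H19 and Igf2 differences was not tested. Adipocytes and macrophages express Lpl. Of 9 adipocyte markers only Fabp4 was seen, on both arrays, with sums of 3.08 in the library labelled Snail and 2.24 in wild-type, while Adipoq, Plin1 and Lep were seen on neither. Of 10 macrophage markers 10 were seen in the library labelled Snail and 8 in wild-type, with sums of 77.6 in the library labelled Snail and 64.3 in wild-type. Of the 8 seen on both arrays, 1 was higher by 2-fold or more, Marco at 1.50 in log2, and 0 were lower. Their median log2 difference was 0.12. The part of adipocytes and macrophages in the Lpl difference was not tested.

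Of 7 cholangiocyte and progenitor markers, 3 were seen in the library labelled Snail and 2 in wild-type, with sums of 0.843 in the library labelled Snail and 0.474 in wild-type, and Krt19, Krt7 and Epcam were seen on neither array. Their part in the Afp difference was not tested. Stellate markers were seen at 7 of 8 in the library labelled Snail and 6 of 8 in wild-type, with sums of 4.29 in the library labelled Snail and 3.60 in wild-type. Of the 6 seen on both arrays, 1 was higher by 2-fold or more, Col1a1 at 1.32 in log2, and 1 lower, Lrat at -1.01. Under normexp 0 were higher and 0 lower by that much. Endothelial markers were seen at 7 of 7 in the library labelled Snail and 6 of 7 in wild-type, with sums of 40.4 in the library labelled Snail and 43.2 in wild-type. Of the 6 seen on both arrays, 1 was higher by 2-fold or more, Lyve1 at 1.99 in log2, and 0 were lower. Of 11 erythroid markers 5 were seen on each array, with sums of 81.4 in the library labelled Snail and 156.9 in wild-type. Of these 5, 0 were higher and 1 was lower by 2-fold or more, Tfrc at -1.69 in log2, with a median log2 difference of -0.64. Under normexp 0 were lower by that much. Hemgn, an erythroid nuclear protein gene, made up most of both sums, at 77.8 in the library labelled Snail and 153.9 in wild-type. It differed by -0.98 in log2, while Alas2, the erythroid haem synthesis enzyme, went the other way, at 0.49. The embryonic globins Hba-x, Hbb-bh1 and Hbb-y were seen on neither.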

How the data were processed

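Total RNA of 1 Alb-Cre;CAG-floxed neo-Snail and 1 wild-type liver was labelled with Cy3 and hybridised to 1-colour Agilent arrays. The authors deposited intensity values of Agilent Feature Extraction (version 9.5.1.1 in the submitters' processing notes), background-subtracted and not scaled between arrays, with probe positions on mm9, per the file headers. Their value table of the same probes is linear, and its scale, centring and any normalization are unstated. It has equal sorted values in both columns, which is what quantile normalization yields. The table served as an alternative but is not independent of the quantile setting, with Alb at 0.045 and 734 probes at least 2-fold higher under both.

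Control spots and 287 outlier spots were left out, spots of a probe were averaged as log2 signal minus the array's 75th percentile, and no spot was saturated. The software's error was propagated to each log2 difference. Between repeat spots the median SD of that difference was 0.08 over 239 probes and 0.17 at signals under 100. Of the probes, 26055 (66.1%) were named by accession through RefSeq, the rest by the files. Probes of a gene seen on both arrays were averaged. A list's sum takes 1 probe per gene. Where several probes of a gene were seen on both arrays, it is the probe with the largest absolute log2 difference. The sums therefore lean toward larger differences between the arrays. Serpina1a entered at 352.9 in the library labelled Snail and 645.0 in wild-type, with an averaged log2 difference of -0.65. Csf1r entered at 0.735 in the library labelled Snail and 1.25 in wild-type, with an averaged log2 difference of -0.03.

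Median scaling, another percentile base, quantile normalization, normexp with an offset of 50, no filter on dim probes, a minimum signal of 50 on both arrays, and the authors' table were the alternatives. Code was tested on simulated data. R 4.3.3, limma 3.58.1, Python 3.11.15, numpy 2.4.6, pandas 2.3.3 and matplotlib 3.10.9 were used. Members, lists, motifs and the rule for named genes (all members, whole small families, up to 4 genes of each other list by size) were chosen with earlier results of these data known.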

Additional observations from a re-analysis of the deposited data

How the results depend on the processing

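Under 7 alternatives, 60 values of the 9 probes with a value were computed. Of these, 54 moved by less than the software's error, 4 moved by more and 2 reversed. The filter settings leave a retained value unchanged by construction, and median scaling and the other percentile base shift all probes equally. The count of 54 is therefore no measure of robustness. Igf2 went from 1.57 to 0.44 under normexp and was counted as unmoved because its error was 1.45. The 3 probes at least 2-fold higher became 1 under normexp (Afp), 2 under median scaling, where Lpl probe 2 was at 0.98, 6 with no filter on dim probes and 1 with a minimum signal of 50 on both arrays (Lpl probe 2); the last setting leaves Afp and Lpl probe 1 without a value. All probes at least 2-fold higher fell to 352 under normexp and 417 with the minimum signal, against 714, and all probes at least 2-fold lower to 683 under normexp, against 1173. Normexp also reversed both Igf2bp2 probes, to -0.054 and -0.021, and gave 8.77 for H19 probe 1, 0.44 for Igf2 and 0.78 for Igf2bp3. Over the alternatives the log2 difference spanned 8.77 to 11.15 for H19 probe 1, 1.79 to 3.06 for Afp, 0.62 to 1.58 for Lpl probe 1, 0.92 to 1.12 for Lpl probe 2 and 0.41 to 0.60 for Zbtb20. With no filter, H19 probe 2, Gpc3, Zhx2 and Igf2bp1 all took -0.47, which is the gap between the floors of the arrays and no measurement. The count of probes seen in the library labelled Snail alone has no value without the filter.

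With 1 array for each genotype, the number of arrays limits the precision, and array, animal and genotype cannot be told apart. Signals near background limit Igf2, Igf2bp2, Igf2bp3 and wild-type Afp. No paired analysis was possible because each group has 1 sample and no test was run.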
